A study of Mus musculus with 18 samples.

Results

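The regions described here are the most highly transcribed of the TSS-distal DNaseI hypersensitive sites (DHSs) of murine embryonic stem (ES) cells, as measured by nascent RNA sequencing. They were selected on the authors' mean normalized read count over all libraries (baseMean), and each DHS with a baseMean of 100 or more was taken. This gave 1305 of the 70586 DHSs in the deposited table, or 1.85% of all DHSs and 2.25% of the 57954 with a baseMean above 0. The levels that follow are therefore a description of the regions chosen by that rule, and none of them was tested.

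A DHS is a stretch of open chromatin that DNaseI cuts readily, and those away from promoters include many enhancers. RNA polymerase II often transcribes active enhancers, and most of the resulting enhancer RNAs are short-lived, so that they are detected more readily in newly made RNA than in total RNA. FACT, a histone chaperone made of SPT16 and SSRP1, removes and replaces histone H2A/H2B dimers as polymerases pass. In TT-seq, cells take up 4-thiouridine for a few minutes, and RNA that has incorporated it is purified and sequenced.

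The cells were of the E14 ES line, and all of them carried the plant F-box gene osTIR1, which marks proteins bearing an auxin-inducible degron (AID) for degradation when auxin is present. In 2 independently made clones SPT16 itself bore a mini-AID and V5 tag at its C-terminus, while untagged cells lacked it. Each of these 3 lines (Untagged, SPT16_AID_V5_Clone1 and SPT16_AID_V5_Clone2) was treated for 24 h with the auxin 3-indole acetic acid (IAA) or with 0.1% ethanol (EtOH), with 3 libraries for each of the 6 conditions and 18 in all. Labelling with 4-thiouridine lasted 5 min. The labels give 500 nM for IAA and the study's methods give 500 µM. Each clone is a single isolate, and the value used here is a mean over depleted and control libraries together, so the effect of SPT16 depletion on these regions was not analysed.

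The deposited table names each DHS by a number only, and the names are described as arbitrary. Coordinates were not used here, and therefore no sequence, chromosome or neighbouring gene is given for any DHS. The sites had been kept by the authors because they lay more than 1 kb from the TSS of coding genes. Whether a given DHS lies within a gene, on whose nascent RNA its reads could then lie, cannot be told apart here from transcription that starts at the DHS. The values are not divided by the length of the region, so a wide DHS can reach 100 at a lower density of reads than a narrow one.

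The summed baseMean of the distal DHSs was concentrated in a small number of them. The 1305 highly transcribed DHSs held 56.3% of the summed baseMean of all 70586. The 7559 DHSs with a baseMean from 10 to 100 held a further 33.3%. In order of level, the first 925 DHSs were enough to hold 50% of the sum. The median baseMean of the highly transcribed DHSs was 177, against 0.802 for all DHSs with reads, and 12632 DHSs were listed at 0. A high median and a high share follow from the choice by level. The share was 69.7% with a bound of 50 and 41.2% with a bound of 200.

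**Figure D1:**
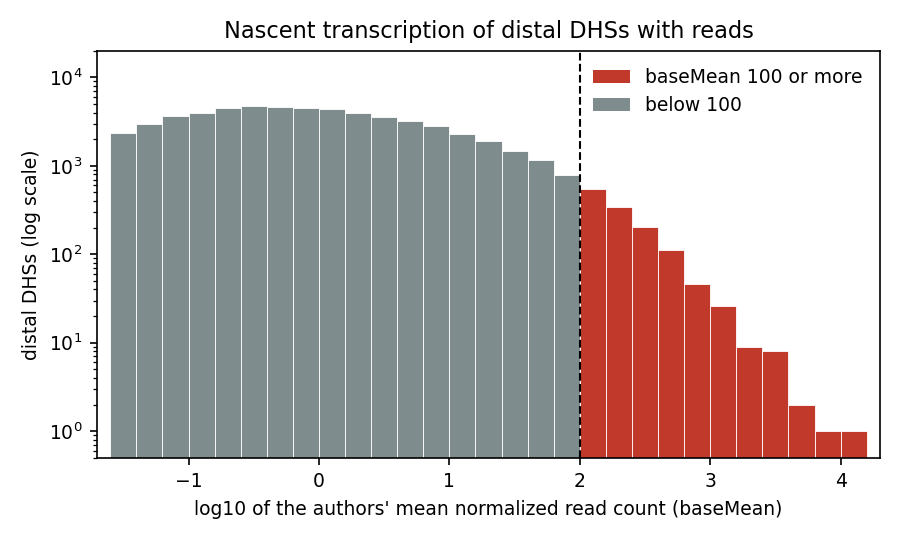
Distribution of nascent transcription over the 57954 distal DHSs with reads. The x axis is log10 of the authors' mean normalized read count (baseMean), the y axis is the number of DHSs on a log scale, and the dashed line is a baseMean of 100. The 1305 highly transcribed DHSs (red) form the upper tail of one continuous distribution and reach 10753, with no gap at 100.

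Most of the highly transcribed DHSs lay near the lower bound. Of the 1305, 755 (57.9%) had a baseMean below 200, another 408 lay from 200 to 500, 95 from 500 to 1000, and 47 reached 1000 or more. The lower and upper quartiles were 129 and 290. The 47 DHSs at 1000 or more held 14.6% of the summed baseMean of the table.

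The highest level was that of DHS67016, with a baseMean of 10753 in the deposited table, 107 times that of the lowest region chosen. DHS67181 followed with 8215. The next was DHS43994 with 5129, then DHS195939 with 4292. The first of these was thus 2.51 times the fourth. DHS56765 had a baseMean of 3724, DHS67072 of 3577 and DHS79236 of 3523. The baseMean was 2890 for DHS161268, 2748 for DHS137432 and 2730 for DHS56763. Together these 10 held 6.81% of the summed baseMean. Of the 10, 5 had a number within 500 of another of the 10. DHS56763 and DHS56765 were 2 numbers apart, DHS67016 and DHS67072 were 56 apart, and DHS67072 and DHS67181 were 109 apart.

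The bound of 100 did not fall at a break in the levels. The regions just inside it were DHS120278 at 100.23, DHS121819 at 100.26 and DHS181604 at 100.31, and those just outside were DHS179175 at 99.83, DHS95365 at 99.83 and DHS20800 at 99.80. The depth behind such values can be read from the lowest levels of the same table. A DHS with a single read in a single library has a baseMean set by the size factor of that library alone. The search found 18 such single-read levels, as many as there were libraries. Part of the search was settled with that number known, and other tolerances gave 17 and 19. If the 18 levels are taken as 1 for each library, they ran from 0.0257 to 0.0972. The size factors of this table then differed by up to 3.78 times between libraries. In the other tables the same 18 libraries had single-read levels that differed by 4.62 (putative eRNAs), 4.84 (PROMPTs) and 5.34 times (genes), so these ratios are not read as sequencing depth. A baseMean of 100 thus stands for at least 1029 and at most 3887 reads over all libraries. Its counting error alone (1 Poisson SE) lies between 1.60 and 3.12, which does not include the spread between libraries. Within 3.12 of the bound there were 38 DHSs above it and 49 below it. For the median of the highly transcribed DHSs the counting error was at most 2.35% of the value, and for DHS67016 at most 0.301%. A single library could still carry most of a region's reads, since the mean over libraries does not show it.

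Highly transcribed DHSs lay next to each other in the numbering, which the rule did not use. Of the 1305, 676 (51.8%) had another highly transcribed DHS at the number directly before or after. Among the remaining DHSs, 980 (1.41%) had one beside them. Taking one direction only, the next number was that of a highly transcribed DHS in 51.4% of the 836 cases in which it was listed, against 1.77% over all listed pairs in the table. The share fell to 25.4% at 3 numbers away, 13.3% at 5 and 3.52% at 10, where the share over all pairs was 1.41%. At 500 numbers it was 2.02%, against 1.81% over all pairs.

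The other DHSs numbered close to them were also transcribed above the level of the table. DHSs below 100 that lay 1 number from a highly transcribed DHS had a median baseMean of 24.0 (980 DHSs, quartiles 5.35 and 55.4), whereas the median of all DHSs below 100 was 0.398. The median was 12.6 at 2 numbers away, 4.19 at 5, 1.80 at 10 and 0.938 at 20. It reached 0.423 at 500. Across all pairs of DHSs with reads, levels at consecutive numbers had a Spearman's rho of 0.641 (42215 pairs), which was 0.192 at 10 numbers apart and -0.00798 at 1000. These pairs come from the same libraries and are not independent, and the coefficients are given as a description only. DHSs with close numbers thus had levels more alike than DHSs with distant numbers, and the order that the numbers follow is not given in the sources used here. In the putative eRNAs, which are numbered separately, levels at consecutive numbers were less alike. There, the rho at consecutive numbers was 0.0474 (14361 pairs), and 210 of the 1121 eRNAs at 100 or more (18.7%) had another beside them, against 13.7% of the eRNAs below 100. The order of the eRNA numbers is not given either. Consecutive numbers may thus not mean the same for eRNAs as for DHSs, and no difference in clustering is concluded.

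**Figure D2:**
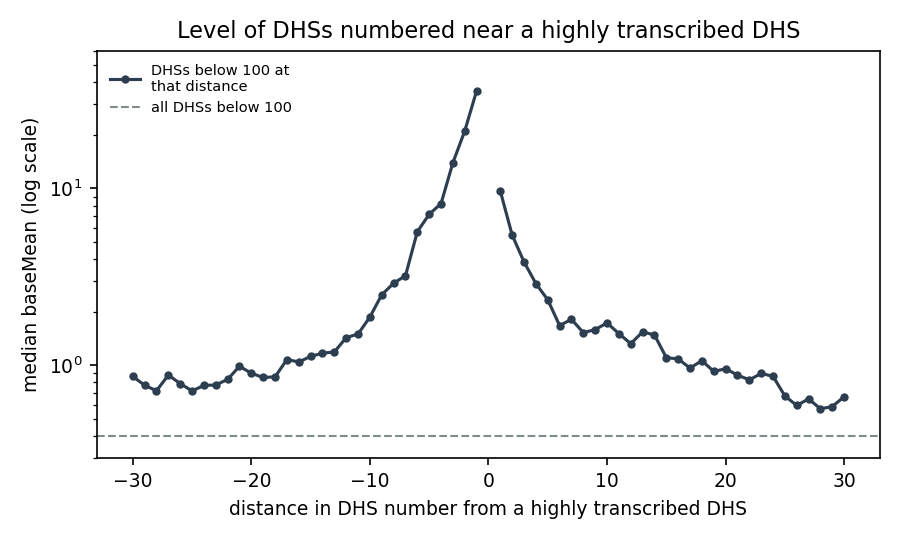
Median baseMean (y axis, log scale) of DHSs below 100, by their distance in number from a highly transcribed DHS (x axis, from 30 before to 30 after). The dashed line is the median of all DHSs below 100, at 0.398. Levels fell with distance on both sides, from 35.6 directly before and 9.64 directly after. Highly transcribed neighbours are left out of this plot; with them, over the 686 DHSs with both neighbours listed, the medians were 73.2 before and 98.1 after, and for those at 200 or more 117 before and 114 after.

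The 2 sides of a highly transcribed DHS were not alike. Among DHSs below 100, those at the number directly before one had a median baseMean of 35.6 (614 DHSs), and those directly after one had a median of 9.64 (406 DHSs). At 5 numbers the medians were 7.14 before and 2.35 after, and at 20 they were 0.902 and 0.957. The number after was also missing from the table more often. It named no DHS for 469 of the 1305 (35.9%), and the number before named none for 261. Over all DHSs each side was missing for 16.3%. Those shares are equal by construction, since each stretch of consecutive numbers has a first and a last DHS. They therefore give no baseline for a difference between the sides. The number after was also missing more often at 50 to 100 (30.3%, against 22.5% before) and at 10 to 100 (24.5% against 20.7%). The order was reversed at 1 to 10 (16.8% after, 18.7% before) and between 0 and 1 (14.4% and 15.5%). Where both neighbours were listed, the level after was the higher in 407 of 686 cases and the level before in 279, with medians of 98.1 after and 73.2 before. The order of these medians did not hold in all subsets. For the DHSs at 200 or more the medians were 117 before and 114 after, with the level after the higher in 171 of 306. At 1000 or more they were 553 before and 321 after, with the level after the higher in 16 of 30. In the last of 4 equal parts of the numbering they were 71.6 before and 52.5 after, with the level after the higher in 86 of 167. The side with the higher level thus depended on whether neighbours at 100 or more were counted and, for the medians, on the level and the part of the numbering. This lean was not particular to the highly transcribed DHSs, since over the whole table the level after was higher in 25194 and the level before in 20281 of 49401 cases. Among the highly transcribed DHSs that had both neighbours listed and no other such DHS beside them (249), the lean was the other way, with the level before the higher in 144. In this last set the median was 30.05 before and 10.4 after.

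In the numbering the 1305 regions formed 875 runs of consecutive numbers. A single DHS made up 629 of the runs, 154 held a pair, 81 held 3 to 5 and 11 held 6 or more. The 92 runs of 3 or more held 368 DHSs, or 28.2% of all those chosen. Their median baseMean was 235, against 158 for the DHSs that stood alone. Of the 47 DHSs at 1000 or more, 28 were in runs of 3 or more and 9 stood alone. Within a run of 3 or more, the highest level was a median of 2.64 times the lowest, with ratios from 1.21 to 20.1.

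Within runs, the highest level lay more often at the last number than at the first. In 55 of the 92 runs of 3 or more (59.8%) the highest DHS was the last, in 9 (9.78%) it was the first and in 28 it was inside the run. Of all positions in these runs, 50% were inside. In the runs of 2, the second DHS was the higher in 96 of 154. The number before the run was listed for 61 of the 92, with a median baseMean of 53.7, and the number after for 43, with a median of 5.61. Both sets are below 100 by the definition of a run. Of the 54 runs with a missing number at 1 end only, 28 had their highest DHS at that end, 11 at the other end and 15 inside. Among the 92 runs the number after was missing for 49 and the number before for 31. The gap was thus more often at the end where levels were highest, and these counts do not separate nearness to a gap from direction.

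The longest run was that of the 15 DHSs from DHS137421 to DHS137435, with a summed baseMean of 11865. The first 8 of them lay between 223 and 390. DHS137429 was at 538 and DHS137430 at 1272, and after 784 at DHS137431 the highest level was reached at DHS137432, with 2748. The last 3 were at 1151, 1525 and 1370. The DHSs on either side of this run were far lower, with DHS137420 at 1.24 and DHS137436 at 1.26, both above the median of 0.802 for DHSs with reads. The second run, of 9 DHSs from DHS69361 to DHS69369, began at 135 and reached 2716 at DHS69368. Its last DHS was at 889, and the DHS that followed, DHS69370, was at 2.43, whereas DHS69360 before it was at 69.7. The third held 8 DHSs from DHS187582 to DHS187589, which went from 406 at the first to 1970 at the last. No DHS was listed at the number before the third run, and DHS187590 after it was at 2.81.

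**Figure D3:**
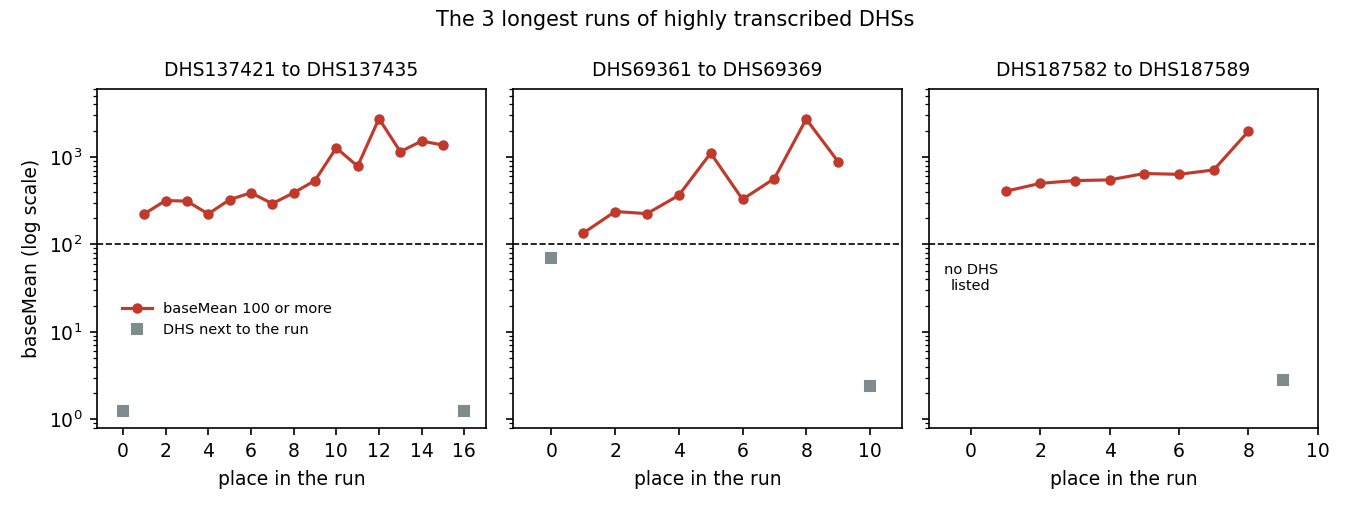
Levels in the 3 longest runs of highly transcribed DHSs. Each red point is the baseMean (y axis, log scale) of a DHS at its place in the run (x axis), grey squares are the DHSs at the numbers directly before and after, and the dashed line is 100. In each run the highest DHS lay in the later part, at 2748, 2716 and 1970, and the DHS after the run was below 3.

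Other highly transcribed DHSs lay between neighbours that were both below 3, as in the following. DHS67016, the highest of all at 10753, lay between DHSs at 0.214 and 2.17. DHS113875 had a baseMean of 161, with the number before it listed at 0 and the number after it at 0.0585, the single-read level of 1 library. DHS51973, at 1440, lay between 0.0430 and 2.76. Of the 249 that had both neighbours listed and stood alone, 41 (16.5%) had both neighbours below 10 and 6 had both below 1. The other 208 had at least 1 neighbour at 10 or more. The rest of the 629 that stood alone had a missing number beside them and are not in these counts. The same shares over all DHSs were not computed.

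Highly transcribed DHSs were often found beside a gap in the numbering. The numbers ran from 1 to 199717, so that 129131 of them named no DHS in the table, and the DHSs that were listed fell into 11509 stretches of consecutive numbers. Of these stretches, 789 (6.86%) held a highly transcribed DHS. Of the 1305, 619 (47.4%) had a missing number directly before or after, against 30.01% of all DHSs. Both sides were missing for 8.51%, against 2.60% of all DHSs. The share beside a gap rose with level through most of the range, from 23.9% of the DHSs listed at 0, through 32.5% at 1 to 10 and 39.7% at 10 to 100, to 48.6% at 100 to 300. It was 45.0% at 300 to 1000, and 17 of 47 at 1000 or more (36.2%, exact 95% binomial interval 22.7 to 51.5%). The interval at 1000 or more includes the shares of all the other levels, from 23.9% to 48.6%. With 47 DHSs, 28 of them in runs of 3 or more, neither a fall at the highest levels nor its absence could be shown. No conclusion is drawn on it. These intervals treat DHSs as independent, which neighbours are not, and so are too narrow. Why numbers are missing is not given in the sources used here beyond the removal of sites near a TSS, and its part in these shares was not tested.

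**Figure D4:**
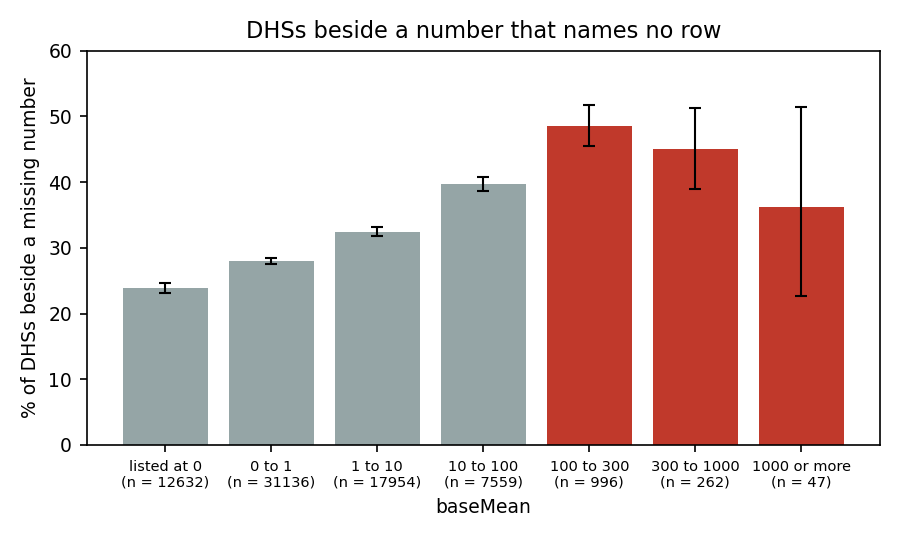
Share of DHSs (y axis, %) with a missing number directly before or after, by baseMean (x axis, with the number of DHSs). Bars are exact 95% binomial intervals, red marks DHSs at 100 or more. The share rose from 23.9% at 0 to 48.6% at 100 to 300 and was 36.2% with a wide interval at 1000 or more.

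Highly transcribed DHSs were found throughout the numbering but not evenly. Of 400 windows of 500 numbers, 62 held none of them and the median window held 3. In 20 windows there were 10 or more, and these windows held 238 (18.2%) of the highly transcribed DHSs with 5.45% of all DHSs. They were picked by that count, so the larger share follows from the choice. Windows also differ in how many DHSs they list. The window from 137001 to 137500, which includes the longest run, held the most, with 20 among 144 DHSs. The window from 67001 to 67500 had the highest summed baseMean, 27437 or 3.92% of that of the table, and includes DHS67016, DHS67072 and DHS67181.

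**Figure D5:**
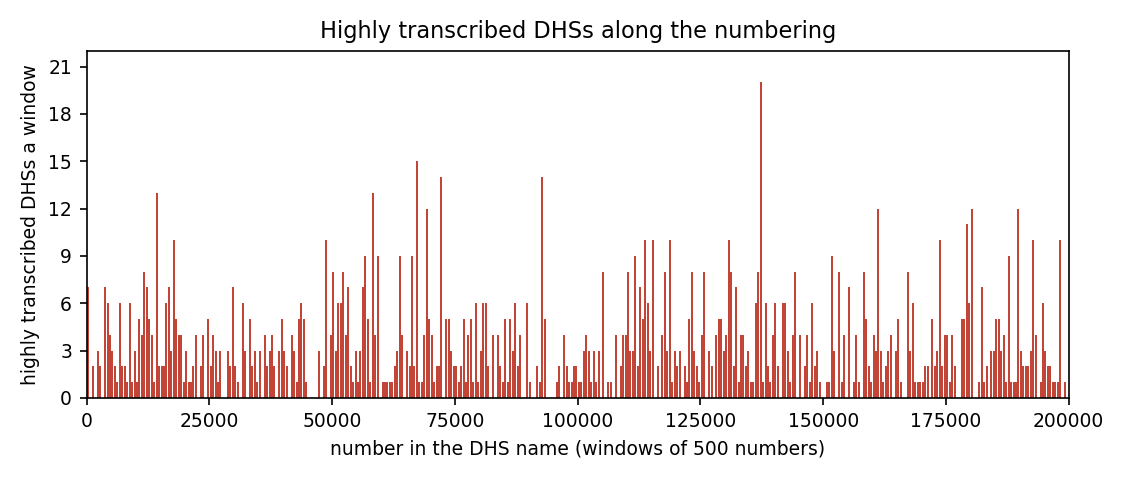
Number of highly transcribed DHSs (y axis) in each window of 500 consecutive DHS numbers (x axis). Of 400 windows, 62 held none, and the highest line is the window from 137001 to 137500 with 20.

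Set beside the other classes of transcript that the authors counted in the same 18 libraries, distal DHSs reached 100 more often than PROMPTs and less often than putative eRNAs. PROMPTs are transcripts made upstream of and divergent from promoters, and 295 of 32253 (0.915%) had a baseMean of 100 or more. For putative eRNAs, which the authors defined by a distal DHS together with a peak of H3K27ac or H3K4me1, the number was 1121 of 15438 (7.26%), and for protein-coding genes it was 12529 of 21859 (57.3%). The tables were normalized separately, with 18 single-read levels in each and geometric means of those levels from 0.0540 to 0.0553. The eRNA table held a summed baseMean of 1114671 and a highest value of 205204, both above those of the DHS table (699046 and 10753). Its values were thus not simply a subset of those of the DHS table. Whether the intervals or the strand counted differed was not tested. The intervals and their lengths are not given in the sources used here, so the shares of the 4 tables are given side by side and were not tested. Within each table, features at 100 or more held 45.5% of the summed baseMean for PROMPTs, 56.3% for distal DHSs, 79.9% for putative eRNAs and 99.8% for genes. The 10 highest distal DHSs held 6.81% of the sum, whereas the 10 highest held 24.6% for PROMPTs, 56.7% for putative eRNAs and 1.49% for genes.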

How the data were processed

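TT-seq libraries (18, from 6 conditions of 3) were made from E14 ES cells. Per the study's methods, trimming was done with Trim Galore and alignment to mm10 with STAR, which kept unique alignments only. Reads were counted by strand with featureCounts, whereas the submitters' processing notes name HTSeq. The strand given to each DHS and the versions are not given in the sources used here. The baseMean signal is as deposited, the authors' mean over libraries of read counts scaled by the size factors of DESeq2, and rows at 0 are included. The 4 other value columns of each table hold the authors' own comparison of depleted with control libraries (fold change, standard error, p and adjusted p) and were not used. Counts per library were not used either, so nothing was tested, no library could be left out, and groups and replicates were not compared.

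Regions were ordered by the number in their name. The regions named are the 10 highest, 3 on either side of 100, those of the 3 longest runs, and the 3 with listed neighbours of the lowest summed level relative to their own. Single-read levels were values up to 0.2 with at least 0.06 of the rows of the most frequent value that were no sum of 2 or 3 lower levels within 2e-07. This tolerance and the removal of sums of 3 were settled after the data were seen, with 17 and 19 levels found at other tolerances and the number of libraries known, so the 18 levels are not independent evidence of that number. The search was tried on simulated counts with Poisson error only, so without further spread between libraries, and up to 2 missed levels were allowed. The run counts were tried on planted runs of fixed length. The members and measures were chosen with earlier results of these data known, and the comparisons of the 2 sides, of missing numbers at run ends and of windows were added after the levels had been seen. Alternatives were bounds of 50 and 200, other distances and search limits, and leaving out the 5 highest rows. Tables were handled in pandas 2.3.3 and numpy 2.4.6, intervals were computed in scipy 1.17.1, and plots were drawn in matplotlib 3.10.9, under Python 3.11.15.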

Additional observations from a re-analysis of the deposited data

How the results depend on the processing

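No paired analysis was possible because the values are means over all libraries, and for the same reason no replicate was left out and the spread between libraries is unknown. With a bound of 50 there were 2650 regions, and with 200 there were 550, and they held 69.7% and 41.2% of the summed baseMean. Without the 5 highest rows the share at a bound of 100 was 54.2%. Another region at or above the bound directly before or after was found for 57.9% at a bound of 50 and 46.0% at 200, and within 2 numbers for 56.9% at a bound of 100. The median 1 number away was 12.3 at a bound of 50 and 44.6 at 200, and 2 numbers away it was 12.6 at a bound of 100. Among DHSs below the bound, the higher level before than after was found at both bounds, which were added after the data were seen, with medians of 17.3 before and 8.22 after at 50, and of 59.7 and 20.1 at 200. The share beside a missing number was 46.6% at 50 and 44.4% at 200. Over rows with reads only, the share at 100 or more was 2.25% for distal DHSs, 7.53% for putative eRNAs, 1.27% for PROMPTs and 62.2% for genes. The search limits left 18 single-read levels, while tolerances added after the data were seen gave 17 and 19.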
